A study of Mus musculus with 4 samples.

Results

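Oxidative phosphorylation genes encode the protein complexes of the inner mitochondrial membrane that pass electrons to oxygen and use the resulting proton gradient to make ATP. Complex I takes electrons from NADH and complex II takes them from succinate. Complex III passes them to cytochrome c, complex IV hands them to oxygen, and complex V is the ATP synthase. Heart muscle cells are packed with mitochondria, so these genes are among the most abundant transcripts of the ventricle, and a few complex IV subunits exist as separate muscle and non-muscle forms.

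The genes were chosen by name alone, as every non-control probe of the array whose gene name begins with Nduf, Uqc, Cox4 to Cox8 or Atp5, or is one of the 4 Sdh genes. This gave 93 genes, measured by 137 probes, of 21249 named genes on the array. They comprised 36 genes of complex I, 4 of complex II, 8 of complex III, 18 of complex IV and 15 of complex V, while 12 genes caught by the name pattern are not subunits. The latter were the complex I assembly factors Ndufaf1 to Ndufaf7, the complex III assembly factor Uqcc, Atp5s, Atp5sl, the supercomplex factor Cox7a2l and the pseudogene Atp5c1-ps. Each gene was read from its brightest probe. A gene was tested if the WT pair or the KO pair of arrays, or both, showed it well above background, which held for 90 of the 93, and these 90 cleared background on all 4 arrays. Cox4i2, Cox7b2 and Cox8c were too dim to test, and no probe was named Ndufa4l2.

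RNA came from left ventricles of KDM5B knockout (KO) and wild-type (WT) mice 7 days after myocardial infarction, with 2 one-colour Agilent arrays in each group, numbered 2 and 3 in the sample titles and called WT 2, WT 3, KO 2 and KO 3. The KO mice carry a CRISPR/Cas9 deletion in Kdm5b that takes out the catalytic JmjC domain of this histone H3K4 demethylase, and the WT mice were littermates. In the methods the mice are male, 8 to 10 weeks old and infarcted by tying off a coronary artery for good. All 4 arrays come from infarcted hearts and none from sham-operated hearts. How many animals stand behind an array was not given in the sources used here. The labels do not say that arrays of a group came from separate animals, but the Xist and Ddx3y signals described next differ between the arrays of each group.

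Several properties of the arrays bear on all values that follow. Kdm5b itself read -0.87 and -1.81 on WT 2 and WT 3, and -2.40 and -2.26 on KO 2 and KO 3, in log2 signal relative to the array's 75th percentile, so both KO arrays were below both WT arrays. KO minus WT was -0.996 (standard error 0.40, limma adjusted p 0.9999), so Kdm5b did not pass the test. The difference was -1.53 between KO 2 and WT 2 and -0.46 between KO 3 and WT 3. Of all tested genes, 9.41% had both KO arrays below both WT arrays. The arrays numbered 2 went against their male label, since Xist, the RNA of the inactive X chromosome, was bright on WT 2 and KO 2 and the Y-linked gene Ddx3y on WT 3 and KO 3. The atrial genes Sln and Myl7 stood at 5.95 and 6.39 on KO 2, and on the other 3 arrays were no higher than -2.46 and 0.23. WT arrays lay at slide positions 1 and 2 and KO arrays at positions 3 and 4, so position and genotype cannot be told apart.

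Some of the genes have known regulatory motifs in their promoters, which the name rule did not use. The 3 genes of the ATP synthase c subunit, which forms the rotating ring of the enzyme, encode the same mature protein from separate promoters, and show how these regions vary. Each line gives the 120 bases before the annotated start, 5′ to 3′ on the gene's strand, from RefSeq on build GRCm38.p6. Capitals mark CGCATGCG, the core of the site of nuclear respiratory factor 1 (NRF1), in Atp5g2, and TGACCTT, the reverse complement of AAGGTCA, a site of oestrogen-related receptors (ERR), in Atp5g3.
Atp5g1, chr11:96075632-96075751, minus strand: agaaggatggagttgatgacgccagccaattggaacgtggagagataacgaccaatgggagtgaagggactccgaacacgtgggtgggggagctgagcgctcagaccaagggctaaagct
Atp5g2, chr15:102671048-102671167, minus strand: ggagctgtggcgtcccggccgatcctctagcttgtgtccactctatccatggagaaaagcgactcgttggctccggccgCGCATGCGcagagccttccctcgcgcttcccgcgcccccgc
Atp5g3, chr2:73911327-73911446, minus strand: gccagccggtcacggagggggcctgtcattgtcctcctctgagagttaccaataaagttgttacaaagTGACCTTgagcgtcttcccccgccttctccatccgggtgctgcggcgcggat

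Promoter windows running from 250 bases before to 50 bases after the start were found for 77 of the 93 genes, among them 66 tested subunit genes. On either strand, CGCATGCG was present in the windows of 9 of these 66 genes (13.6%), against 3.86% of the 11089 tested genes with a window. AAGGTCA was present in 8 (12.1%, against 4.30%). AAGATGGC, the core of the YY1 site, was present in 10 (15.2%, against 4.62%). The ETS site CCGGAAGT was found in 5 (7.58%, against 7.76%) and TATAAA in 6 (9.09%, against 10.4%), both close to the share in all tested genes. In no window did 2 different motifs overlap. A match describes the letters of the window only.

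The first question was whether the genes differed between KO and WT. Every one of the 90 tested genes had a higher mean in KO than in WT, by 0.03 to 0.68 on the log2 scale with a median of 0.50, while the median over all 15560 tested genes was 0.03 and 8452 of them had a higher mean in KO. None passed the test. By limma (adjusted p under 0.05 and fold change over 2) 0 of the 90 genes were called, against 0.0% of all genes tested, with no adjusted p below 0.9999. The count was also 0 for an unadjusted p under 0.05, which 1.46% of all genes reached. No gene of the set was above 2-fold higher (1.11% of all genes) or lower (2.40%) in the mean of the KO arrays. In whole tissue, fewer cells of a type and less RNA per cell cannot be told apart.

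The arrays of 1 genotype did not lie together. The median log2 signal over the 90 genes was 7.16 on KO 2, 5.92 on WT 2, 5.14 on WT 3 and 4.97 on KO 3. Thus the KO arrays were the highest and the lowest of the 4, with both WT arrays between them. The same order (KO 2, WT 2, WT 3, KO 3 from high to low) was found for 77 of 90 genes (85.6%), against 19.3% of all tested genes. This ordering was singled out after the values were seen. The 13 exceptions were Ndufa13, Ndufa3, Ndufs4, Ndufs5, Cox6a1, Cox6b2, Cox6c, Cox8a, Atp5e, Atp5g2, Cox7a2l, Ndufaf2 and Ndufaf3.

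**Figure D1:**
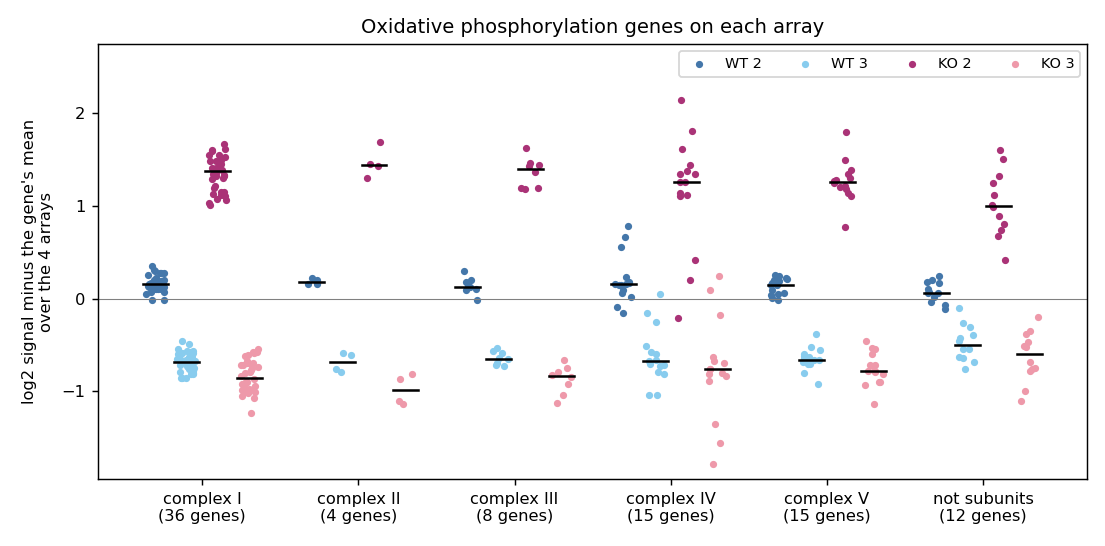
Log2 signal of each tested oxidative phosphorylation gene minus its own mean over the 4 arrays (vertical axis), by respiratory complex (horizontal axis), with 1 point per gene and array and a black bar at the median. In each group of genes the median of KO 2 lies highest and that of KO 3 lowest, with WT 2 above WT 3 between them, while 3 complex IV genes on KO 2 lie below 0.5.

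Within array number 2, KO was above WT in 89 of 90 genes (8231 of all 15560), with a median difference of 1.14 and a range of -0.13 to 1.53. The difference exceeded 2-fold in 72 of them (80.0%), against 6.88% of all genes, and none was 2-fold lower (9.43% of all genes). Within array number 3, KO was below WT in 78 of 90 genes (7247 of all 15560), but by little, with a median of -0.13 and a range of -0.73 to 0.25. No gene at number 3 was over 2-fold higher (2.53% of all genes) or lower (1.83%). With 1 array per genotype at each number there is no test of either difference or of the contrast between them.

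Arrays of the same genotype lay far apart. The arrays numbered 2 were above those numbered 3 in both genotypes for 87 of 90 genes, against 37.6% of all genes, the exceptions being Cox6a1, Cox6b2 and Cox7a2l. In the median gene WT 2 exceeded WT 3 by 0.80 and KO 2 exceeded KO 3 by 2.09. The 4 arrays spanned 2.09 in the median oxidative phosphorylation gene and 0.74 in the median gene of the array. Leaving out KO 2 turned the median KO minus WT from 0.50 to -0.54, with 88 of 90 genes lower in KO. It came to 1.58 without KO 3, 0.92 without WT 2 and 0.11 without WT 3.

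**Figure D2:**
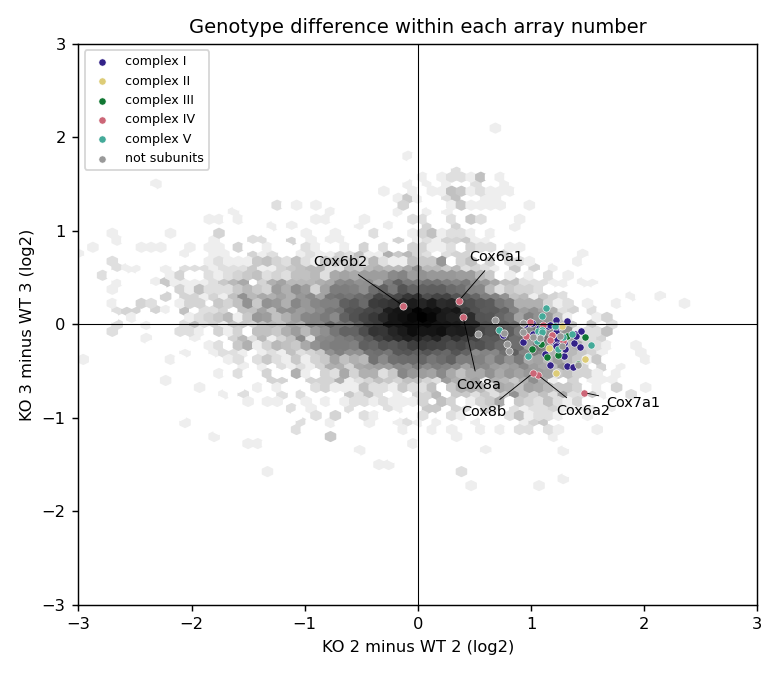
Difference between KO and WT at array number 2 (horizontal axis, log2) against that at array number 3 (vertical axis, log2) for each tested oxidative phosphorylation gene, coloured by complex, over the density of all tested genes in grey (darker is more genes; genes beyond the axes are not drawn). Most coloured points form 1 cluster at about 1.14 on the horizontal axis and just below 0 on the vertical axis, with Cox6a1, Cox8a and Cox6b2 to its left and Cox7a1, Cox6a2 and Cox8b below it.

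The size of the number 2 difference depended on how the arrays were scaled, while its median stayed above 0. After quantile normalization, which gives all 4 arrays the same distribution and which the authors' own table matches, the median at number 2 was 0.67 instead of 1.14, and 7 of 90 genes were over 2-fold instead of 72. The share over 2-fold was then 7.78%, against 5.57% of all genes. The 7 genes comprised 4 of complex I, 1 of complex II and 2 that are not subunits, so the 2-fold counts given for single complexes hold for the 75th percentile shift only. The median at number 3 became -0.22, the order of the arrays was found for 83 genes, and the median KO minus WT fell to 0.216, with 84 genes higher and 6 lower in KO. The 75th percentile of the unscaled processed signal was 607.6 on KO 2 and 876.3 to 976.1 on the other arrays, and its part in the number 2 difference was not tested beyond these settings.

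**Figure D3:**
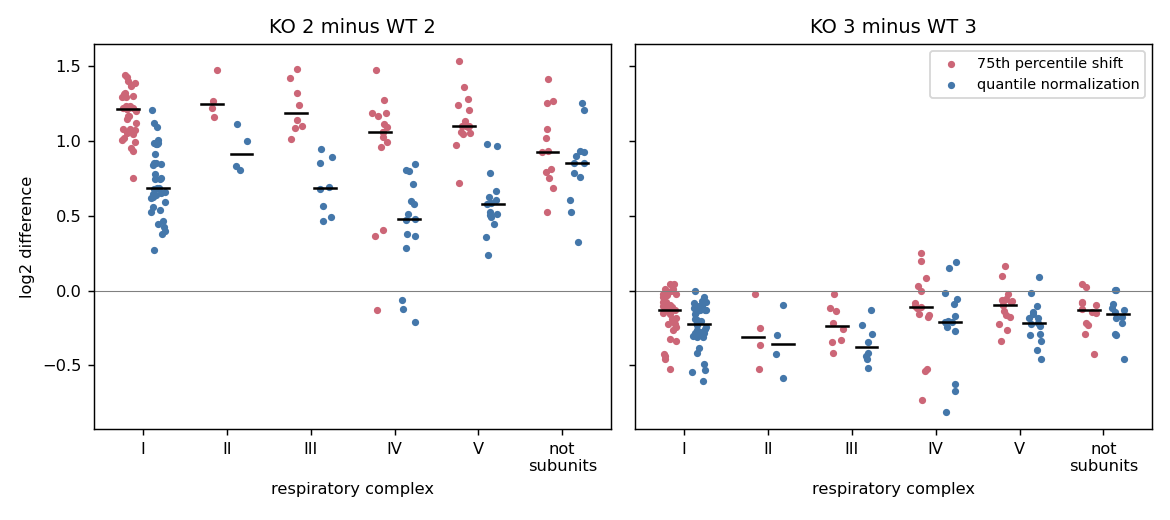
Difference between KO and WT (log2, vertical axis) at array number 2 (left) and number 3 (right) for each tested gene by complex (horizontal axis), after a shift by the 75th percentile (red) or quantile normalization (blue), with black bars at the medians. At number 2 nearly all points stay above 0 under both scalings but sit lower after quantile normalization, and at number 3 the medians lie below 0 under both.

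Ranks of genes within a complex are likewise those of the 75th percentile shift. Complex I, the entry point for NADH, had the most genes. All 36 were higher on KO 2 than on WT 2, with a median difference of 1.22, and 32 exceeded 2-fold. At number 3 the median was -0.13 and 32 genes were lower on KO 3. The 11 Ndufs and Ndufv genes, which include the iron-sulphur and flavin core of the enzyme, had medians of 1.23 and -0.22, and the 25 Ndufa, Ndufb and Ndufc genes, which code mostly for accessory subunits, had 1.20 and -0.11.

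The greatest mean difference in complex I was in Ndufv3, an accessory subunit of the NADH-oxidising module. It read 3.99 and 2.98 on WT 2 and WT 3, and 5.44 and 2.91 on KO 2 and KO 3, giving a KO minus WT of 0.68 with a standard error of 1.01. The groups overlapped, as KO 3 was below both WT arrays. Other, dimmer Ndufv3 probes gave mean differences of 0.28 and 0.21. Ndufs4, whose loss in mice causes a mitochondrial encephalopathy, read 4.62, 3.68, 5.94 and 3.72 in the same order, and KO 3 lay just above WT 3. The least mean difference was in Ndufa12, an accessory subunit, at 6.07, 5.19, 6.82 and 5.08. On this brightest probe its excess on KO 2 over WT 2 was 0.75, below 2-fold and the smallest of complex I. Other tested Ndufa12 probes gave 1.18 and 1.17, above 2-fold, with mean differences of 0.52 and 0.47, so the low rank belongs to 1 probe.

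Complex II, succinate dehydrogenase, is the only complex encoded wholly in the nucleus and also works in the tricarboxylic acid cycle. All 4 genes followed the array order, and all 4 exceeded 2-fold at number 2. The flavoprotein gene Sdha read 3.13 and 2.32 on WT 2 and WT 3, and 4.36 and 1.80 on KO 2 and KO 3. The iron-sulphur subunit gene Sdhb read 4.77, 3.80, 6.25 and 3.43. Both catalytic genes were thus lower on KO 3 than on any other array, by 0.52 and 0.37 against WT 3. Of the membrane anchors, Sdhc read 4.02, 3.26, 5.17 and 3.0, and Sdhd read 5.47, 4.52, 6.74 and 4.50, where KO 3 and WT 3 were nearly equal.

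Complex III, the cytochrome bc1 complex, followed the order in all 8 genes, with medians of 1.19 at number 2 and -0.24 at number 3. Uqcr11, a small subunit, read 6.70 and 6.06 on WT 2 and WT 3, and 8.18 and 5.92 on KO 2 and KO 3, the greatest mean difference of the complex (0.67, standard error 0.88). Uqcrb, a subunit near the quinone site, read 5.62, 4.77, 6.94 and 4.65. In both, KO 3 lay only slightly below WT 3, by 0.14 and 0.12. The Rieske iron-sulphur protein gene Uqcrfs1 read 5.60, 4.61, 6.74 and 4.26, and the small subunit gene Uqcr10 read 7.31, 6.57, 8.33 and 6.31, with the smallest mean differences of the complex (0.40 and 0.38).

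Complex IV, cytochrome c oxidase, had number 2 differences from -0.13 to 1.47 and number 3 differences from -0.73 to 0.25. Of the 15 tested genes, 10 exceeded 2-fold at number 2 and 11 followed the order. Ndufa4, named for complex I but now assigned to complex IV, read 5.97 and 5.10 on WT 2 and WT 3, and 7.25 and 4.92 on KO 2 and KO 3, and Cox7c read 3.89, 2.86, 5.0 and 2.85. Both had a mean difference of 0.55, the greatest of the complex. Cox4i1, the ubiquitous form of the largest nuclear subunit, read 7.85, 7.13, 8.81 and 7.01. Cox6b2, a form best known from testis, read -0.15, -0.01, -0.27 and 0.19, and was the only gene lower on KO 2 than on WT 2.

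For 3 complex IV subunits both a muscle and a non-muscle form were measured. Cox6a2, Cox7a1 and Cox8b are made in heart and skeletal muscle, whereas Cox6a1, Cox7a2 and Cox8a are made more widely. The probes that read them share little sequence. In their best ungapped alignment the 2 probes of a pair matched at 19, 18 and 19 of 60 bases. The first 30 bases of each probe are printed in its own line with the position of the probe on mm9, in lower case throughout. The Cox7a1 probe covers 612 bases of genome and so crosses an intron.
Cox6a2, chr7:135349160-135349219: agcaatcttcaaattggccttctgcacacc
Cox6a1, chr5:115795726-115795785: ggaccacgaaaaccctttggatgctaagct
Cox7a1, chr7:30970337-30970948: acaacgtcctgtacagactgaccatgacgc
Cox7a2, chr9:79603227-79603286: aactgagctcttctttggggatcaatattt
Cox8b, chr7:148084852-148084911: ctataaaaagagctccgcagcatgaagttg
Cox8a, chr19:7289727-7289786: tcatgttattcaattccagtcacctcttct

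Cox7a1 read 7.42 and 5.71 on WT 2 and WT 3, and 8.90 and 4.97 on KO 2 and KO 3, a span of 3.92 that was the widest of all 90 genes. Cox7a2 read 6.32, 5.74, 7.38 and 5.58. The muscle form therefore ran further up on KO 2 and further down on KO 3 than its counterpart. Cox6a2 read 8.15, 6.78, 9.21 and 6.24, while Cox6a1 read 7.42, 7.42, 7.78 and 7.67. Cox6a1 was the only tested gene of the set whose KO arrays both exceeded both WT arrays, against 13.1% of all tested genes. Its difference was 0.31 with a standard error of 0.21 (limma adjusted p 0.9999). After quantile normalization its difference was -0.03 and its groups overlapped. No gene had both KO arrays below both WT arrays (9.41% of all genes). Cox8b read 7.33, 5.51, 8.36 and 4.99, and Cox8a, with a much narrower span, read 6.17, 5.90, 6.57 and 5.98.

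Within each array, the log2 ratio of the muscle to the non-muscle form changed from WT to KO by 0.70 at number 2 and -0.79 at number 3 for Cox6a2 over Cox6a1. For Cox7a1 over Cox7a2 the changes were 0.41 and -0.57, and for Cox8b over Cox8a they were 0.62 and -0.61. In each pair the ratio was highest on KO 2 and lowest on KO 3. Averaged over the numbers the changes were -0.04, -0.08 and 0.01, each with an exact two-sided permutation p of 1.0, where 0.333 is the smallest p that 2 arrays against 2 allow. Quantile normalization gave changes of 0.58 and -0.83, 0.32 and -0.60, and 0.54 and -0.61 for the pairs in the same order, with every sign as before.

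**Figure D4:**
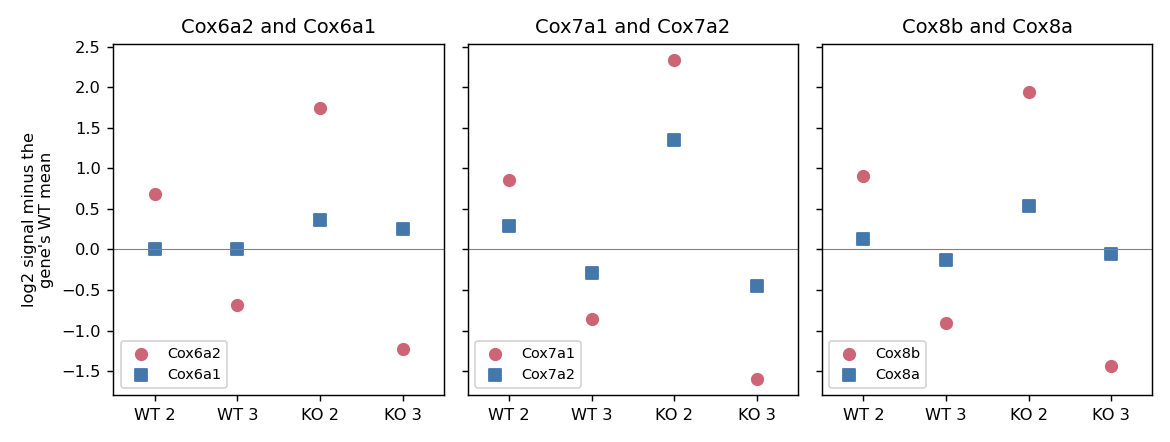
Log2 signal of the muscle form (red circles) and the non-muscle form (blue squares) of 3 complex IV subunits on each array (horizontal axis), each minus the gene's own WT mean (vertical axis). In all 3 pairs the muscle form is furthest from 0 on every array, above its counterpart on WT 2 and KO 2 and below it on WT 3 and KO 3.

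Complex V, the ATP synthase, had medians of 1.10 at number 2 and -0.10 at number 3, and 13 of 15 genes exceeded 2-fold on KO 2. The 2 below that mark on their brightest probes code for the catalytic head. The beta subunit gene Atp5b read 7.79 and 7.35 on WT 2 and WT 3, and 8.51 and 7.28 on KO 2 and KO 3, and the alpha subunit gene Atp5a1 read 6.91, 6.11, 7.88 and 5.77. On these brightest probes both had the lowest mean differences of the complex, at 0.33 and 0.32. A second Atp5a1 probe gave 1.02 at number 2, above 2-fold, and other Atp5b probes gave 0.63 to 1.0. Of the c subunit genes whose promoters are printed above, Atp5g1 read 5.87, 4.70, 7.41 and 4.48, Atp5g2 read 6.41, 5.66, 7.54 and 5.83, and Atp5g3 read 7.11, 6.23, 8.20 and 6.13. The number 2 difference of Atp5g1 was 1.53 (0.97 after quantile normalization), and Atp5g2 was the only one of the 3 in which KO 3 exceeded WT 3, by 0.17.

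The 12 genes that are not subunits ran the same way, at a median of 0.93 at number 2 and -0.13 at number 3, and 5 of them exceeded 2-fold on KO 2. Their number 2 median was below that of the 78 tested subunit genes (1.17) but above it after quantile normalization (0.86 against 0.65), so the data give no order between them. Cox7a2l, a factor for respiratory supercomplexes, read 3.35 and 3.36 on WT 2 and WT 3, and 3.88 and 3.27 on KO 2 and KO 3. Where a gene had 2 or more tested probes (30 genes), the probes gave the same sign of the mean difference in 28. They disagreed in Ndufb2, whose probes ran from -0.28 to 0.51, and in Uqcc, whose probes ran from -0.68 to 0.49. Within the array numbers, the probes gave the same sign in 28 of the 30 genes at number 2 and in 25 at number 3.

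Other genes of mitochondrial energy metabolism were listed from textbook knowledge. By limma none of them passed the threshold. Probes were found for 4 of 13 mitochondrially encoded subunits (ND4, CYTB, COX2 and ATP6), and their number 2 differences were 0.61 to 0.75, below 2-fold, with -0.20 to 0.10 at number 3. The COX2 probe is placed on chromosome 1 in the file, so it may also read a nuclear copy. All 5 electron carrier genes exceeded 2-fold at number 2, among them cytochrome c (Cycs), which read 5.74 and 4.80 on WT 2 and WT 3, and 7.18 and 4.60 on KO 2 and KO 3. Of 17 tricarboxylic acid cycle genes, 15 exceeded 2-fold at number 2, all 17 were lower on KO 3 than on WT 3, and all 17 followed the array order. Of 76 mitochondrial ribosome genes, all 76 were higher on KO 2 than on WT 2, but 19 exceeded 2-fold and 30 were lower on KO 3. Of the assembly factors outside the gene set, 3 of 17 for complex IV and 2 of 11 for complexes II, III and V were over 2-fold at number 2. The complex IV factor Pet100, at 2.72 and 2.16 on WT 2 and WT 3 and at 3.21 and 2.97 on KO 2 and KO 3, was higher on both KO arrays. It was 1 of 3 among the 17 with separate groups. Of all genes, 13.1% had both KO arrays above both WT arrays and 9.41% had both below. At number 2, 6.88% of all genes were over 2-fold higher, and at number 3, 7247 of all 15560 were lower on KO 3. The array order was found for 19.3% of all genes. The 2-fold counts of these lists, and of the regulators below, are not given after quantile normalization. That scaling cut the count for the oxidative phosphorylation genes from 72 to 7 of 90.

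Of 18 known regulators of these genes, 14 were higher on KO 2 than on WT 2 and 14 were lower on KO 3 than on WT 3. The array order was followed by 12 of the 18 (19.3% of all genes), and 5 were over 2-fold at number 2 (6.88% of all genes). Ppargc1a, the coactivator that drives mitochondrial biogenesis, read 2.45 and 1.31 on WT 2 and WT 3, and 3.71 and 0.21 on KO 2 and KO 3. The muscle coactivator gene Perm1, named 2310042D19Rik on the array, read 2.86, 1.03, 4.0 and -0.12. Both spanned over 3 log2 units between KO 2 and KO 3. Nrf1, whose factor binds CGCATGCG, read -2.59, -2.06, -2.63 and -2.0, with no excess on KO 2, and Yy1 read 1.26, 1.67, 1.16 and 1.43. Tfam, the packaging factor of mitochondrial DNA, read 5.08, 4.89, 5.51 and 5.29, the KO pair above the WT pair. It was the only 1 of the 18 with separate groups, while 13.1% of all genes had the KO pair above.

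Markers of cell types moved along the arrays with the oxidative phosphorylation genes. The 15 cardiomyocyte markers were all well above background on all 4 arrays. Their medians were 6.59 and 5.35 on WT 2 and WT 3, and 7.68 and 4.66 on KO 2 and KO 3. All 15 followed the same order, against 19.3% of all genes. Their median difference was 1.09 at number 2 and -0.71 at number 3, where all 15 were lower on KO 3 (7247 of all 15560). Compared with these markers, the oxidative phosphorylation genes had about the same difference at number 2 and a smaller one at number 3, although the contrast between the lists was not tested. The myosin heavy chain gene Myh6 read 6.59, 5.47, 7.68 and 3.99, and myoglobin (Mb) read 8.46, 7.15, 9.19 and 6.49.

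Markers of the other cell types ran in both directions. Of all 15560 tested genes, 7329 were lower and 8231 higher on KO 2 than on WT 2. At number 3, 7247 were lower and 8313 higher on KO 3 than on WT 3. All 9 macrophage markers were lower on KO 2 than on WT 2, with medians of 3.16 and 3.71 on WT 2 and WT 3, and 2.03 and 3.76 on KO 2 and KO 3. All 10 fibroblast and matrix markers were also lower on KO 2 than on WT 2, with medians of 6.37, 6.40, 5.19 and 6.40. The same held for all 4 neutrophil markers, with medians of 0.57, 0.94, -1.83 and 1.06. Only 3 of these 4 were well above background on all 4 arrays, and no result is drawn from the other. All 7 endothelial markers were higher on KO 2 than on WT 2, at a median difference of 0.55, as were the 4 tested skeletal muscle markers, at 1.10. Of 4 smooth muscle markers, 1 was higher on KO 2 than on WT 2 and 3 were higher on KO 3 than on WT 3. All 3 tested red cell markers were also higher on KO 2 than on WT 2 and lower on KO 3 than on WT 3, with median differences of 1.89 and -1.04. The 3 tested brown fat markers were higher on KO 2 than on WT 2, by 1.25 to 2.91, while Ucp1, the defining gene of brown fat, was too dim to test. Ppargc1a, given above as a regulator, is also in this list. The 2.91 was that of Elovl3, which read -7.16 and -7.45 on WT 2 and WT 3, and -4.25 and -5.05 on KO 2 and KO 3. Elovl3 was not well above background on the WT arrays and was tested only through its KO arrays. The filter itself thus favoured a KO excess, and no result is drawn from it. The part of cell composition, of atrial tissue on KO 2 and of the Xist and Y-linked split between array numbers in the values of the oxidative phosphorylation genes was not tested.

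**Figure D5:**
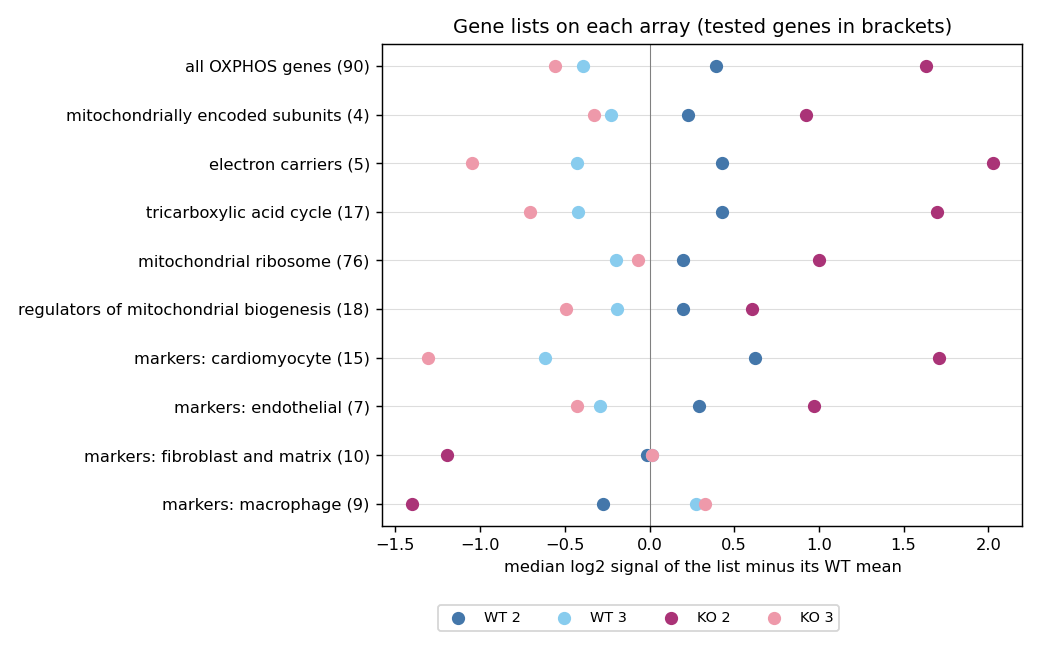
Median log2 signal of each gene list on each array minus the mean of its WT medians (horizontal axis), for the oxidative phosphorylation genes and 9 other lists (vertical axis, number of tested genes in brackets). KO 2 lies furthest right for the mitochondrial, cardiomyocyte and endothelial lists and furthest left for the fibroblast and macrophage lists, and KO 3 lies furthest left for the cardiomyocyte markers.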

How the data were processed

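Per the file headers, the authors scanned the 4 arrays and deposited intensity values from Agilent Feature Extraction 10.7.3.1 (10.7 in the submitters' notes), with probes placed on mm9. The authors also deposited log2 values made with GeneSpring, whose normalization is not given in the sources used here. They matched a quantile normalization of the processed log2 intensity to within 0.01 for 99.90% to 99.96% of values per array. Each array held 45018 spots for 41174 non-control probes, with 68.15% to 72.04% of probes well above background. No spot was saturated and outlier spots were dropped.

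The log2 processed intensity was shifted by each array's 75th percentile and spots of a probe were averaged. The 28305 probes that stood well above background on both WT arrays, both KO arrays, or all, were tested with limma 3.58.1 (lmFit and eBayes, R 4.3.3) and Benjamini-Hochberg adjustment over all of them. The 12863 dimmer probes and 6 with a missing value were not. Shares of all genes use the brightest probe of each named gene. The fit was checked on simulated data with less noise than the genes of the set showed. Here the replicate SD of the median over the oxidative phosphorylation genes was 1.16, so the check does not cover this spread. Named genes were Kdm5b, in each complex the 2 highest and the 2 lowest mean differences, the isoform pairs, the c subunit, Sdh and Ndufa4 genes, and any gene with separate groups, of which 1 gene is not reported here. Other genes were named as examples of their lists. The genes, lists and rules were chosen with earlier results of these data known. Alternatives covered background correction, scaling, filters, probe choice, a block for array number, leaving out single arrays, and the methods' t-test. Precision is limited by there being 2 arrays per group.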

Additional observations from a re-analysis of the deposited data

Results flagged for a closer look

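The median difference between KO and WT over the 90 oxidative phosphorylation genes was 1.14 at array number 2 and -0.13 at array number 3. In the median gene KO 2 thus lay above WT 2, while KO 3 lay slightly below WT 3. The difference between the numbers was not tested, since each holds 1 array per genotype. Outside the main measurement, the brightest Xist probe gave 14.13 (WT 2) and 13.24 (KO 2) as log2 signal before scaling, on arrays labelled male, but only 1.92 (WT 3) and 2.01 (KO 3) on the others. Ddx3y gave the opposite, with 2.12 and 1.63 on the arrays numbered 2 and 11.88 and 11.44 on those numbered 3. This split is balanced over genotype.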

How the results depend on the processing

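With 2 arrays per group, 0 oxidative phosphorylation genes passed limma's threshold under any alternative, and the median KO minus WT stayed above 0 (0.216 to 0.531) under every alternative that kept all 4 arrays, but ran from -0.54 to 1.577 when single arrays were left out. Genes over 2-fold higher then numbered 0 to 82 (82 without KO 3), and genes over 2-fold lower 0 to 4 (4 without KO 2). With all arrays there were 0 of either. The median over all genes was 0.026 without KO 3 and 0.024 without KO 2. The share of all genes over 2-fold is not given for these fits, and the median over all genes does not replace it. The 2-fold counts of these fits therefore cannot be compared with the whole array, and no result is drawn from them. Each such fit leaves 1 array in a group, so only effect sizes are reported. Without the filter on dim probes 2 genes were over 2-fold higher. Over all 28305 tested probes of the array, the methods' t-test called 88 unadjusted and 0 after adjustment. In that unadjusted t-test 1 of the 90 genes had a p under 0.05. Array number as a replicate block gave 0 calls and a median of 0.502, with a lowest adjusted p of 0.9949. Deviations of same-numbered arrays correlated at 0.569, but 2 pairs are too few to treat the numbers as a pairing, and the block changed no call.

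Quantile normalization reversed Cox8a (-0.038), Atp5a1 (-0.049), Cox6a2 (-0.153), Cox6a1 (-0.030), Cox7a1 (-0.007) and Cox8b (-0.075), and the authors' table reversed Cox8a (-0.038), Atp5a1 (-0.046), Cox6a2 (-0.115), Cox6a1 (-0.030) and Cox8b (-0.068). The cause was not tested.
Leaving out single arrays, mostly KO 2, moved the KO minus WT of named genes across 0, over ranges of -0.197 to 0.265 for Cox6b2, -0.551 to 1.194 for Ndufa12, -0.930 to 1.631 for Sdha, -0.843 to 1.635 for Uqcrfs1, -0.734 to 1.371 for Atp5a1, -1.222 to 1.745 for Cox6a2, -1.591 to 2.333 for Cox7a1, -1.435 to 1.936 for Cox8b, -0.579 to 1.946 for Ndufv3, -0.431 to 1.790 for Ndufs4, -0.494 to 1.742 for Sdhd, -0.853 to 1.963 for Sdhb, -0.631 to 1.538 for Sdhc, -0.458 to 1.805 for Uqcr11, -0.546 to 1.746 for Uqcrb, -0.630 to 1.386 for Uqcr10, -0.523 to 1.632 for Cox7c, -0.618 to 1.714 for Ndufa4, -0.053 to 0.537 for Cox8a, -0.811 to 2.120 for Atp5g1, -0.208 to 1.508 for Atp5g2, -0.287 to 0.944 for Atp5b, -0.447 to 1.351 for Cox7a2, -0.478 to 1.317 for Cox4i1 and -0.541 to 1.537 for Atp5g3.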
